A study of Mus musculus with 2 samples.

Results

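The alpha crystallins and their relatives, the small heat-shock proteins, were examined in mouse lens at 2 ages. The group holds 8 genes (Cryaa, Cryab, Hspb1, Hspb2, Hspb3, Hspb6, Hspb7 and Hspb8), fixed by name. Its members on the array were the probe sets whose platform annotation gives exactly 1 gene symbol, that symbol being one of the 8. This took 15 of 45101 probe sets, and 8 of the 18194 genes that have such a probe set. Of the 8 genes, 4 had 1 probe set, 1 had 2 and 3 had 3. RNA came from pooled lenses of wild-type mice of strain C57/BL6, one pool at postnatal day 60 (P60) and one at postnatal day 7 (P7). Both groups shared strain, tissue and protocol and differed in the labels by age only, with no transgene or treatment named. How many animals were pooled, and of which sex, was not given in the sources used here. Each age was represented by 1 array, so no value has a replicate, the ages cannot be compared by a test, and a difference is given as a size.

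Small heat-shock proteins are chaperones that share a conserved alpha-crystallin domain and assemble into oligomers. They bind partly unfolded proteins without using ATP and hold them in a soluble state until ATP-driven chaperones of the HSP70 system refold them or they are degraded. In the lens, where fibre cells lose their organelles and keep their proteins for life, alpha-A and alpha-B crystallin are both bulk structural proteins and chaperones. Mutations in CRYAA and CRYAB cause cataract in humans.

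The values are MAS5 signals, 1 intensity per probe set and array on a linear scale. A floor of 103.9, the median signal over both arrays, separated measured from dim probe sets. To count as measured, a probe set had to pass the floor at P60, at P7 or at both. A dimmer signal was set to the floor before the log2 ratio of P60 over P7 was taken, and the resulting fold is then a bound, written "at least". A difference was counted from 2-fold on. For a gene with several probe sets, the one with the highest mean log2 signal gave the gene's value.

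The promoters of 4 members are shown, those in which a search for the letters given here found a match. RefSeq promoter entries (build GRCm38.p6) matched 6 of the 8 members, with 7 start sites, since Hspb6 has 2. Cryab and Hspb2 had no entry and were not searched. Each sequence is the 250 bases before the start, on the strand of the gene. Capitals mark matches to the letters GAANNTTC and TTCNNGAA, inverted repeats of the GAA unit that heat shock factors bind, to TGCTGAC, the core of the site bound by Maf factors, and to the TATA box letters TATAAA and TATATA, all searched on both strands.
Cryaa, chr17:31677681-31677930, plus strand: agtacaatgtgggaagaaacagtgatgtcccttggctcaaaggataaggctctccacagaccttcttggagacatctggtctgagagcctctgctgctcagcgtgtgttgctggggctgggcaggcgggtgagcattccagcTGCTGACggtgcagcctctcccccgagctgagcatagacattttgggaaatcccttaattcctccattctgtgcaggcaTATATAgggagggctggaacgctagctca
Hspb1, chr5:135887669-135887918, plus strand: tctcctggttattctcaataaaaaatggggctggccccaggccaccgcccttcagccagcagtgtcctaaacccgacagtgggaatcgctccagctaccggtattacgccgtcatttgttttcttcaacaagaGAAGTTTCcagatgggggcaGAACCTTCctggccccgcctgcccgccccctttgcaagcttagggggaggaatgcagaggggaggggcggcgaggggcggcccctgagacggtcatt
Hspb3, chr13:113663677-113663926, minus strand: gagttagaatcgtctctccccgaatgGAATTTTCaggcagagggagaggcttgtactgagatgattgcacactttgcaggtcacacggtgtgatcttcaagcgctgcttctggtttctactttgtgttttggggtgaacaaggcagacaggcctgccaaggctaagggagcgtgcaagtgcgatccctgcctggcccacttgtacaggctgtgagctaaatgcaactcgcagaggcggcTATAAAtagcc
Hspb6, downstream start, chr7:30553051-30553300, plus strand: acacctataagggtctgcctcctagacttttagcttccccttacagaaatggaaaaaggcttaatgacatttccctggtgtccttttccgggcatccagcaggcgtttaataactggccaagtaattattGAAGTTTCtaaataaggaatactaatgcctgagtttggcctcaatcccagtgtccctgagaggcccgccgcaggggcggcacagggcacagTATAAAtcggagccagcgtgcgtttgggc

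The Cryaa promoter held TGCTGAC from -108 to -102 and TATATA from -29 to -24, counted back from the start. The Hspb1 promoter held GAANNTTC at 2 places, from -117 to -110 and from -97 to -90. The Hspb6 promoter held it from -120 to -113, beside a TATAAA from -29 to -24. The Hspb3 promoter held it from -224 to -217, with a TATAAA from -11 to -6. No match to these letters was found before the other Hspb6 start or in the windows of Hspb7 and Hspb8. Of 32851 promoters of this length in the table, 6.69% held GAANNTTC, 7.17% TTCNNGAA and 12.8% at least one of them. TGCTGAC was in 3.81%, TATAAA in 12.4% and TATATA in 5.25%. A match describes letters and is not evidence of a bound site.

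The arrays had median signals of 93.89 at P60 and 112.9 at P7. Genes that mark lens cells were measured for all 16 of 18 that had a probe set, and 15 of them lay within 2-fold. The exception was Foxe3 (110.5 at P60 and 288.2 at P7). With the dimmest measured probe set of each gene, 2 of the 16 were 2-fold lower. The control transcripts bioC, bioD and cre, added to each hybridisation, had log2 ratios between -0.64 and 0.35. The control bioB, added in the same way, was higher at P60 on all 6 of its probe sets, with log2 ratios from 2.24 to 3.20 and signals of 1292 to 2541 at P60 and 170 to 539 at P7. Controls for dap, phe, thr and lys had 6 probe sets each. Their ratios, floored where a signal was dim, ranged from -1.87 to 0.51, from -1.48 to 0.06, from -0.94 to 0.05 and from -0.46 to 0.39. For 18S ribosomal RNA the range was -0.94 to -0.40. The ratio of 5′ to 3′ signal was 0.606 at P60 and 0.785 at P7 for beta-actin, and 1.29 and 1.39 for Gapdh. As a guide to error, the log2 ratios of probe sets of the same gene had a pooled SD of 0.58 over 4239 genes, a spread that leaves out animals, pools and hybridisations.

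The alpha crystallins and Hspb1 stayed within 2-fold, Hspb3 and Hspb6 were over 3-fold lower at P60, and Hspb7 was not measured. Of the 15 member probe sets 12 were measured, 10 of them at both ages and 2 at P60 only. Among the 7 measured members, Hspb3 and Hspb6 (2 genes) passed 2-fold downward, none passed it upward and 5 lay within it. Over all 13029 measured genes 9.44% were 2-fold lower and 11.5% higher. The median log2 ratio of the 7 genes was -0.08, against 0.02 for all measured genes. Counted by probe set, 2 of 12 were lower and 1 was higher, where 10.6% and 9.89% of 22462 measured probe sets with 1 symbol were lower and higher. With so few members these shares do not set the group apart from the background.

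**Figure D1:**
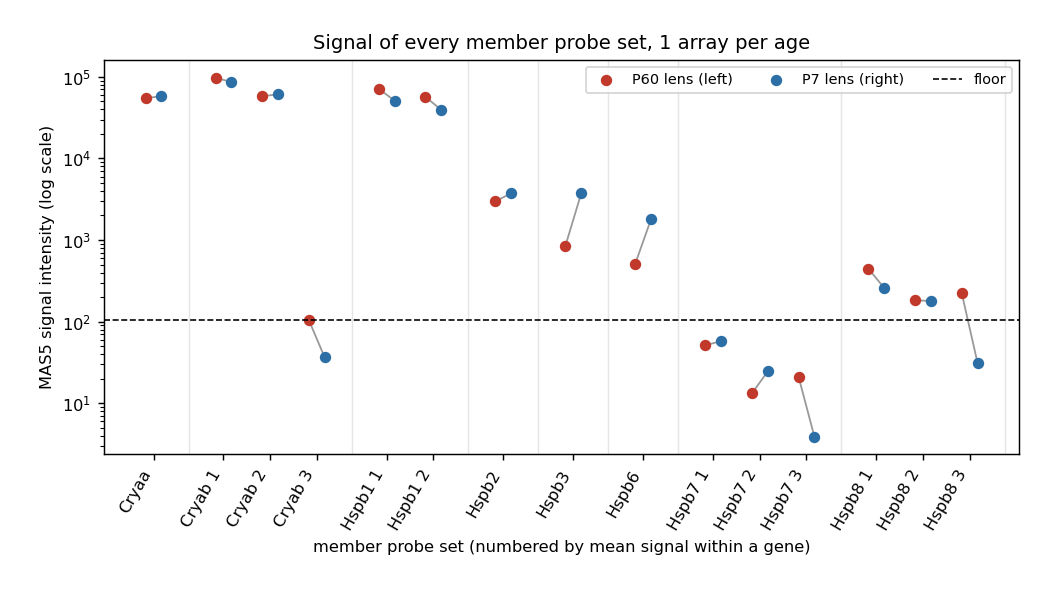
MAS5 signal intensity (log scale) of the 15 member probe sets, with the P60 lens on the left and the P7 lens on the right of each pair, 1 array per age. The dashed line is the floor of 103.9. Hspb3 and Hspb6 show the P60 signal well below the P7 signal, the first 2 Cryab probe sets and Cryaa are nearly level, and the 3 Hspb7 probe sets lie under the floor at both ages.

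Cryaa encodes alpha-A crystallin, which outside the lens is found at low level in few tissues. Its only probe set (1452486_a_at) read 54828 at P60 and 57972 at P7, a log2 ratio of -0.08. The P60 lens was thus slightly below the P7 lens, by far less than the spread between probe sets of a gene.

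Cryab encodes alpha-B crystallin, the stress-inducible partner of alpha-A in lens oligomers, which is also abundant in heart and muscle. The probe set 1434369_a_at read 97477 at P60, the highest signal on that array, and 86292 at P7, where it ranked 3 of 45101. Its log2 ratio was 0.18. The probe set 1416455_a_at read 57849 at P60 and 61014 at P7, with a log2 ratio of -0.08. These bright probe sets lay on opposite sides of 0 and gave no direction for Cryab. The third (1435837_at) read 104.6 at P60, just above the floor, and 36.5 at P7, under it, and gave a bound of 0.01. No accession is listed for this probe set, and its signal did not follow the other two.

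Hspb1 encodes HSP25, the mouse form of human HSP27, a stress-induced chaperone that also binds to the actin cytoskeleton and is phosphorylated by MAPKAP kinases. Its probe set 1422943_a_at read 71297 at P60 and 51038 at P7, a log2 ratio of 0.48. The probe set 1425964_x_at, whose suffix marks probes that can match other transcripts, read 56991 at P60 and 39253 at P7, a log2 ratio of 0.54. Both were higher at P60, by 1.40-fold and 1.45-fold, which is under 2-fold. Both ratios are within the SD of 0.58 between probe sets of a gene and above the SD of 0.46 of other probe sets as bright as these. Of all measured genes 27.1% had a higher ratio.

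These bright probe sets lie where signals of all genes spread least between the arrays. Of 94 other probe sets that passed the floor at both ages and had a mean signal of at least 32768, 4.26% differed by 2-fold or more, and their log2 ratios had this SD of 0.46. For 3014 probe sets with a mean signal from 2048 to 32768 the share was 19.1% and the SD 0.87. Whether the ratios of Cryaa, Cryab and Hspb1 are compressed at this end of the scale was not tested, so a difference between the ages is not excluded by values near 0.

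**Figure D2:**
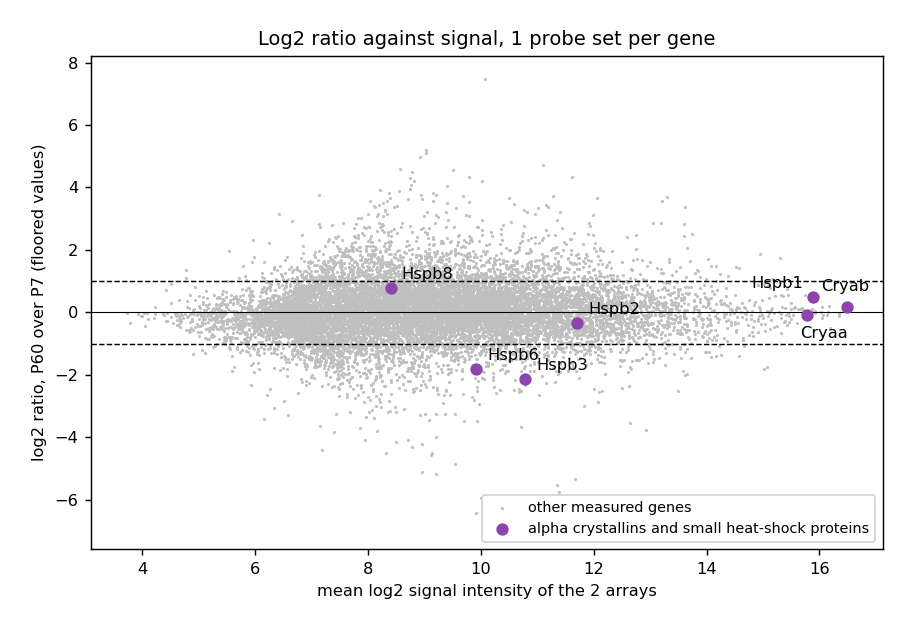
Log2 ratio of P60 over P7 against the mean log2 signal of both arrays for 13029 measured genes, 1 probe set each; purple points are the 7 measured members and dashed lines mark 2-fold. Hspb3 at -2.14 and Hspb6 at -1.82 lie below the lower line, Hspb8 at 0.79 and Hspb1 at 0.48 lie above 0, and Cryaa, Cryab and Hspb1 sit at the bright end where the cloud is narrow.

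Hspb3 showed the lowest ratio of the group. It encodes a small member of the family found mainly in skeletal muscle and heart, where it forms a defined complex with Hspb2. Its probe set (1449872_at) read 843 at P60 and 3722 at P7, a log2 ratio of -2.14, which is 4.41-fold lower in the P60 lens. Only 158 of the 13029 measured genes (1.21%) had a lower ratio.

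Hspb6 encodes HSP20, a chaperone of muscle that is phosphorylated by cyclic nucleotide-dependent kinases during relaxation of smooth muscle. Its probe set (1436332_at) read 514 at P60 and 1815 at P7, a log2 ratio of -1.82, or 3.53-fold lower in the P60 lens. A lower ratio was found for 264 measured genes (2.03%). Both Hspb3 and Hspb6 were above the floor at both ages, and each rests on 1 probe set. Among 6153 other probe sets with mean signals from 512 to 2048, the range that holds both, 8.99% were 2-fold lower and the SD was 0.89. Control transcripts in part of the same signal range differed between these 2 hybridisations in both directions. The ratios of bioB (2.24 to 3.20) were further from 0 than those of both genes. The lowest ratios of the added controls dap, phe and thr were -1.87, -1.48 and -0.94. Those of dap and phe came from 5′ probe sets. A 5′ probe set of thr was under the floor at P60 (89.36) and gave a bound of -0.87. The 3′ probe sets had ratios of -0.03 and 0.51 for dap, -0.31 and 0.06 for phe, and -0.04 and 0.05 for thr. The control lys, with signals of 358 to 1084, ranged from -0.46 to 0.39. The part of the control differences in the result was not tested. In RNA from whole lens pools, fewer cells that express a gene and less RNA per cell cannot be told apart.

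Hspb2, the partner of Hspb3 in muscle, lay within 2-fold. Its probe set (1429888_a_at) read 2987 at P60 and 3743 at P7, a log2 ratio of -0.33. In the RefSeq gene table the annotated spans of Hspb2 and Cryab overlap, as do those of Hspb6 and Lin37. The ratios of Hspb2 and of the bright Cryab probe sets lay within 2-fold, whereas those of Hspb3 and Hspb6, on other chromosomes, did not. The gene values of Cryaa, Hspb1 and Hspb8, also on other chromosomes, lay within 2-fold. The difference between members was not tested.

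Hspb8 encodes HSP22, which forms a complex with the cochaperone BAG3 that hands misfolded proteins to autophagy. Its brightest probe set (1417013_at) read 445 at P60 and 258 at P7, a log2 ratio of 0.79, or 1.73-fold higher. The second (1417014_at) read 183.1 at P60 and 179.1 at P7, a ratio of 0.03. The third (1456434_x_at) read 223 at P60 and 31.1 at P7, under the floor, and was at least 2.15-fold higher. None of the 3 was lower at P60, but they ranged from 0.03 to at least 1.10 and only the dimmest, which can match other transcripts, passed 2-fold. Hspb7, a chaperone of heart and skeletal muscle, had 3 probe sets with signals of 13.2 to 51.4 at P60 and 3.91 to 57.7 at P7. All were under the floor at both ages, so no ratio is given.

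Genes outside the group that carry HSPB numbers or a related domain were compared for context. Hspb11, a subunit of the intraflagellar transport machinery, had a ratio of 0.18 (3549 at P60 and 3139 at P7). Odf1, a protein of the sperm tail, was under the floor at P60 (44.6) and at 150 at P7, and Hspb9, a gene expressed in testis, was under the floor at both ages.

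The genes with the pair of signals nearest to each member were sought among 10238 genes that passed the floor at both ages. The distance was Euclidean on the log2 scale over the 2 arrays. Nearest to Cryaa were Lim2, which encodes a fibre cell membrane protein, and Rps10, at 0.0494 and 0.0512. Nearest to Cryab were Fabp5 and Crygb, at 0.251 and 0.286, and to Hspb1 Igfbp7 and Crybb1, at 0.208 and 0.263. These were the largest distances. The ratios of Fabp5 (-0.05) and Crygb (-0.12) had the opposite sign to that of Cryab (0.18). Zic1 and Zfp365 lay nearest to Hspb3, at 0.0806 and 0.102, and Rcn3 and Tex30 to Hspb6, at 0.0739 and 0.121. Tbc1d7 and Fh1 lay nearest to Hspb2, and Arhgap26 and Olfml2b to Hspb8, all within 0.0448. With 2 arrays a short distance says only that the signals were close.

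ATP-driven chaperones that work with small heat-shock proteins differed in both directions. Of 30 measured genes of the HSP70 system and the BAG cochaperones, 5 were 2-fold higher at P60 and 1 was lower, beside 11.5% and 9.44% of all measured genes, with a median log2 ratio of 0.32. These shares are near the background, and at 3-fold 1 gene was higher and 1 lower. The stress-induced HSP70 gene Hspa1b was 5.51-fold higher (2774 at P60 and 503 at P7), with its 3 probe sets from 2.46 to 3.62. Its near-identical copy Hspa1a was 2.50-fold higher (395 and 158), and the signals of these copies cannot be told apart. Hspa2, known for its role in the testis, was 2.77-fold higher (904 and 326). Bag3, the partner of Hspb8, was 2.09-fold higher (1565 and 750), and Dnajb5 2.44-fold, with its other probe set at 0.57; these 3 of the 5, Hspa1a, Bag3 and Dnajb5, were named after their values were seen. The HSP40 gene Dnaja1 was 3.66-fold lower on its brightest probe set (6410 at P60 and 23431 at P7), but its 3 probe sets ranged from -1.87 to 0.34. Hspa9, the mitochondrial HSP70, had a ratio of -0.79 with its probe sets on both sides of 0.

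Genes of HSP90 and of the chaperonins, which fold tubulin and actin among others, mostly lay within 2-fold. Of 17 measured, 2 were 2-fold lower at P60, a share near the 9.44% of all measured genes, and none was 2-fold higher. Their median was -0.34. These values rest on 1 probe set a gene. With the dimmest measured probe set 4 were lower and 1 was higher. Over all measured probe sets of the 17 genes the log2 ratios ran from -2.08 to 1.36. Ahsa1, an activator of the HSP90 ATPase, was 2.39-fold lower (3651 at P60 and 8732 at P7), and Cct8, a chaperonin subunit, was 2.13-fold lower (2648 and 5641). The highest ratios were those of the kinase cochaperone Cdc37 (0.58) and the immunophilin Fkbp5 (0.49). Their other measured probe sets were at 1.04 and -0.19. The lists were not tested against each other or against other genes.

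Among heat shock factors and their binding proteins 4 of 6 with a probe set were measured, and none reached 2-fold. Hsf4, a factor that activates heat-shock and crystallin genes in lens, read 1139 at P60 and 1634 at P7, a ratio of -0.52. The ratios of Hsbp1, which binds HSF1, and of the HSP70-binding Hspbp1 were -0.56 and -0.89. Hsf2bp, a binding partner of HSF2, was under the floor at P60 (75.03) and at 152 at P7. Hsf2 and Hsf5 were under the floor at both ages, and Hsf1 and Hsf3 were not analysed here.

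Of 22 measured genes that are known or candidate regulators of alpha crystallin genes, 5 were 2-fold higher and 2 lower at P60. Over all measured genes 11.5% were higher and 9.44% lower. The median of these regulators was -0.07. Sox2 was 3.65-fold higher (4154 at P60 and 1138 at P7) and the retinoid receptor gene Rxrb 2.64-fold higher. Foxe3 was 2.61-fold lower. Sox1, a factor of fibre cells, was 2.58-fold lower on its brighter probe set and at -0.35 on the dimmer one. Maf, whose protein binds the core letters found in the Cryaa promoter, had a ratio of 0.07 on its brightest probe set (22896 at P60 and 21816 at P7), with 6 probe sets from -1.91 to 0.07. It was named after its values were seen.

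Kinases that phosphorylate small heat-shock proteins, or that lie upstream of those that do, had a median of 0.15 over 10 measured genes. Of these 2 were 2-fold higher and none lower, beside 11.5% and 9.44% of all measured genes. Mapk14, which encodes p38 alpha, was 3.38-fold higher (4037 at P60 and 1193 at P7), with probe sets from -0.38 to 1.76. Prkg1, the cyclic GMP-dependent kinase, was 2.09-fold higher (7904 and 3780), its other probe set at 0.38. Mapkapk3 (at or below -0.85, under the floor at P60) and Mapkapk5 (-0.81) had the lowest ratios. The other probe set of Mapkapk3 was at 0.32.

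**Figure D3:**
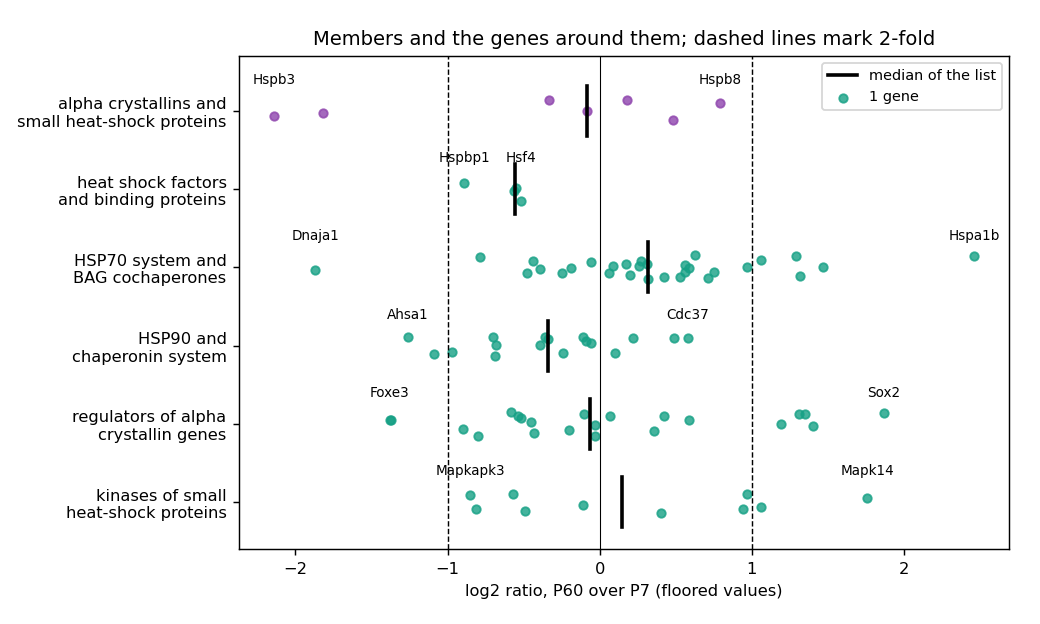
Log2 ratio of P60 over P7 for each measured gene of the group (purple, 7 genes) and of 5 related lists (green), 1 point a gene, with the list median as a black bar and dashed lines at 2-fold. The HSP70 list has its median at 0.32 and the HSP90 and chaperonin list at -0.34; Hspb3 and Hspb6 lie left of the lower line. Labels name the lowest and highest gene of each list.

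Because Hspb2, Hspb3, Hspb6 and Hspb7 are known from muscle, muscle and vessel markers are given beside them. Of 18 skeletal muscle genes 8 were measured and 2 of these were 2-fold higher at P60, beside 11.5% of all measured genes. The summed signals were 8144 at P60 and 3463 at P7. Casq1 (7031 at P60 and 2240 at P7) made up most of both sums, and 10 of the 18 genes were under the floor at both ages on their chosen probe sets, among them the defining genes Acta1, Ckm, Myh1, Myh2 and Myh4. The other probe set of Ckm was measured, at a ratio of 1.39. No gene of this list was 2-fold lower with the floor of 103.9, but 3 of 14 measured were with the floor at the 25th percentile, as were 3 of 8 with no floor. Of 15 smooth muscle and pericyte genes 9 were measured, 2 higher and 2 lower, beside 11.5% and 9.44% of all measured genes. The sums of this list were 40690 at P60 and 15260 at P7. Acta2 (3.56) and the pericyte gene Pdgfrb (3.28) had the highest log2 ratios, with their other measured probe sets at 1.60 and 2.04. The pericyte genes Rgs5 and Notch3 had the lowest, 85.9-fold and 3.85-fold lower at P60. The P60 signal of Rgs5 (103.97) lay at the floor, and its 4 probe sets ran from -6.43 to -2.19. The other probe set of Notch3 was at -0.88, within 2-fold. Myh11, Cnn1, Smtn and Lmod1 were under the floor at both ages. Of 16 endothelial genes 14 were measured, 8 of them 2-fold lower (9.44% of all measured genes were) and none higher, with sums of 1413 at P60 and 5663 at P7. Of these 14, 10 passed the floor at P7 only and so could not come out higher, and 6 of the 8 lower ratios are bounds. Of the 3 above the floor at both ages 2 were lower. The part of any of these cell types in the ratios of Hspb3 and Hspb6 was not tested. The marker genes under the floor were named after their values were seen.

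**Figure D4:**
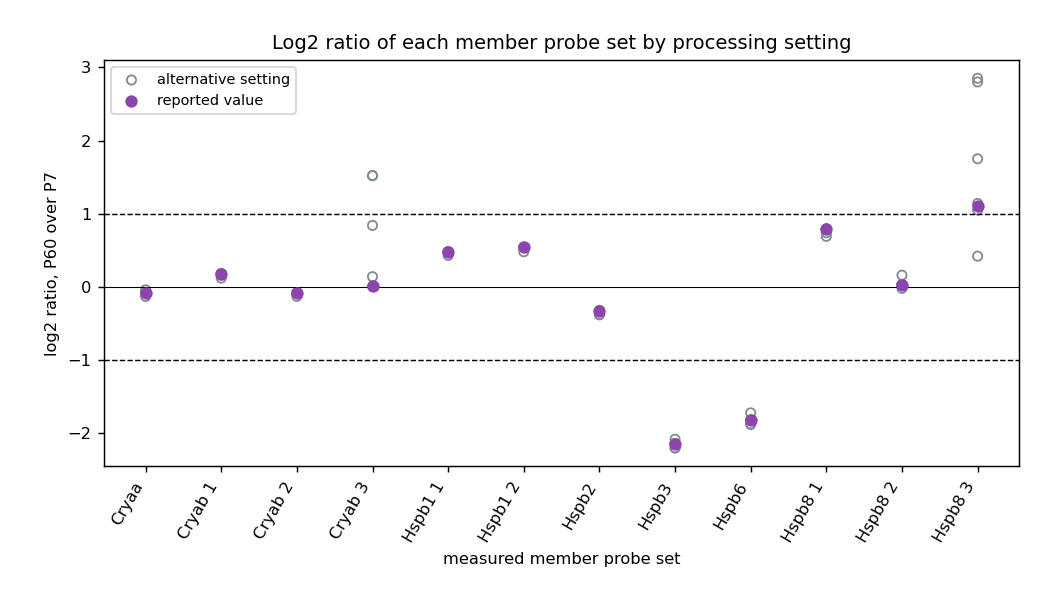
Log2 ratio of P60 over P7 for the 12 measured member probe sets; the filled point is the reported value and open points are the alternative settings of floor, pseudocount, scaling and filter. Hspb3 stays between -2.20 and -2.08 and Hspb6 between -1.88 and -1.72, while the probe sets under the floor at P7, the dimmest of Cryab and of Hspb8, spread from 0.01 to 1.52 and from 0.42 to 2.85.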

How the data were processed

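Lens RNA of 1 pool at each age was labelled with biotin and hybridised to mouse arrays of 45101 probe sets, per the labels' protocols. The authors deposited 1 intensity per probe set and array on a linear scale, computed with MAS5 per the submitters' processing notes. Its version, its scaling target and any detection call were not given in the sources used here. Precision is limited by the number of arrays, 1 at each age. The platform annotation gave 1 symbol to 34958 probe sets, several to 932 and none to 9211, and 34754 of the first were matched to a current gene.

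The floor, the log2 ratios, the 2-fold limit and the choice of 1 probe set a gene were computed in Python 3.11.15 with numpy 2.4.6 and pandas 2.3.3. The code was also run on a simulated pair of arrays with differences planted in bright genes. The simulated spread was narrower than that between these arrays, so that run gives no error for the values here. No test between the ages was run. The members and lists were chosen with earlier results of these data known. Named genes are all members, the 2 highest and 2 lowest of each list (all of the short ones) and the 2 genes nearest to each member. Others were chosen after their values were seen: Hspa1a, Bag3, Dnajb5, Maf, and the marker genes given as under the floor. The lists cover heat shock factors, the HSP70 and HSP90 systems, regulators, kinases, and markers of lens, skeletal muscle, smooth muscle and pericytes, endothelium, cornea, retina and pigment cells. Alternatives changed the floor, pseudocount, scaling, filter, probe set and fold limit.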

Additional observations from a re-analysis of the deposited data

How the results depend on the processing

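Hspb3 and Hspb6 were the 2 member genes that were 2-fold lower under every alternative run. Each has 1 probe set, above every floor used, so the choices of floor, filter and probe set could not change this call. All settings read the same 2 arrays and do not bear on differences between hybridisations. Of 85 alternative values of single member probe sets, 78 lay within 0.58 (the SD between probe sets of a gene) of the reported ratio, 7 did not, and no called value changed sign. The 7 belong to the dimmest probe sets of Cryab and Hspb8, which were under the floor at P7. For the other measured probe sets, above every floor used, the changes of floor and filter could not move the ratio. The count of 78 thus does not measure error between arrays.

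The count of member probe sets 2-fold higher, reported as 1, was 2 with the floor at the 25th percentile, with no floor and no pseudocount and at 1.5-fold. It was 0 with the floor at the 60th percentile, with only those above the floor at both ages, without those marked s_at, x_at or a_at, and at 3-fold. The count of member genes 2-fold higher, reported as 0, was 1 (Hspb8) with the dimmest measured probe set and 1 at 1.5-fold. Without the marked probe sets only 4 member genes were left and their median was -0.90, because Cryaa, Hspb1 and Hspb2 have no other probe set. Otherwise the median ran from -0.13 to -0.04.

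The medians of the related lists ran from 0.25 to 0.32 for the HSP70 system, from -0.53 to -0.26 for HSP90 and chaperonins, and from -0.11 to 0.40 for the kinases, the only one of these 3 with values on both sides of 0. Over all genes the counts 2-fold higher and lower were 1494 and 1230 as reported, 2166 and 2621 with the floor at the 25th percentile, and 1850 and 1987 with no floor. At 1.5-fold they were 2960 and 2622, and at 3-fold 551 and 405. The number of arrays limits every value. No paired analysis was possible because each age has 1 array.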

Other observations

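Markers of other ocular tissues were read in the same arrays. Over all measured genes 11.5% were 2-fold higher and 9.44% lower at P60. Of 11 measured retinal genes 3 were 2-fold higher and 3 lower at P60. Gnat1, a rod transducin subunit, was at least 7.59-fold higher, and the glial water channel Aqp4 had a log2 ratio of 2.22, with 3 probe sets from 0.77. Pdc and Nrl, photoreceptor genes, had ratios of -2.15 and -1.70. Of 6 measured corneal genes only Aldh3a1 passed 2-fold (18639 at P60 and 62.6 at P7, under the floor). Krt6a was under the floor at P60 (31.8) and at 181 at P7, Upk1b and Dsc2 had ratios of 0.01 and 0.66, and Krt12 was under the floor at both ages. The 4 Upk1b probe sets ran from -0.04 to 0.80, and the other Dsc2 probe set was at -0.30. Of 9 measured genes of iris, ciliary body and pigment cells 2 were higher, Oca2 (3.11) and Ttr (1.08). The 2 lower genes were Tyrp1 (-2.07) and Pmel (-1.11). The 4 Ttr probe sets ran from -0.08 to 1.08 and the 3 of Tyrp1 from -2.07 to -0.55. With the dimmest measured probe set 1 gene of this list was higher and 1 lower. Among lens genes Grifin and Birc7 had the highest ratios, 0.76 and 0.75, and after Foxe3 the connexin gene Gja3 the lowest, at -0.29. The other Gja3 probe set was at -1.30, more than 2-fold lower. In the skeletal muscle list Actn3 had a ratio of 1.04, and Ttn and Pvalb, under the floor at P60, gave bounds of -0.39 and -0.36. Of the endothelial genes Cldn5 and Esam were lowest (-3.39 and -2.40, both bounds), and Erg (0.04) and Flt1 (-0.30) highest, each near the floor.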
